A study of Homo sapiens with 6 samples.

Results

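The 37 genes described here encode the machinery that copies chromosomal DNA and the enzymes that supply it with deoxynucleotides. They were chosen by symbol and role, with earlier results of these data known. The set holds the 6 subunits of the MCM2-7 helicase, 4 origin licensing factors and 6 factors that activate the helicase. It also holds the sliding clamp with 4 clamp loader subunits and 7 polymerase and primase subunits. The rest are 2 enzymes that process Okazaki fragments, 3 subunits of RPA and 4 nucleotide supply enzymes. All 37 symbols matched exactly 1 Ensembl identifier, out of 20330 Ensembl genes in each library's table. Gene levels came from RNA sequencing of U251 cells, an established human glioma cell line, in 2 groups of 3 libraries: control cells, and cells with stable overexpression of the long noncoding RNA XLOC013218. The series' design text calls the 3 libraries of each group independent biological replicates. Whether the overexpressing cells were 1 clone or a selected population, and what the control cells carry, was not stated in the labels. XLOC013218 was not analysed here.

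Before S phase, the origin recognition complex with CDC6 and CDT1 loads the ring of MCM2 to MCM7 onto DNA, and CDC45 and the GINS complex then join the ring to form the moving helicase. Primase and the polymerases alpha, delta and epsilon synthesise the strands, PCNA, loaded by the RFC complex, tethers the polymerases to DNA, RPA covers exposed single strands, and FEN1 and LIG1 trim and join the Okazaki fragments of the lagging strand. Ribonucleotide reductase (RRM1 and RRM2), thymidylate synthase (TYMS) and thymidine kinase (TK1) provide deoxynucleotides. Many of these genes are textbook targets of E2F transcription factors and are used as markers of cycling cells.

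The promoters were examined first. Many of these genes are textbook E2F targets, so the E2F-type element searched below was not independent of the choice of genes. RefSeq promoter windows (build GRCh38.p14, 250 bases before to 50 after an annotated start) were found for 32 of the 37 genes, with 41 windows in all, and not for MCM4, MCM5, GINS4, RPA2 and RPA3. An E2F-type element was searched on both strands as TTTCCCGC, TTTCGCGC, TTTGGCGC or TTTGCCGC, and matches on opposite strands may overlap each other. Of the 32 genes, 17 (53.1%) held at least 1 match, against 6.89% of 9445 tested genes with a window and 3.99% of 27305 genes over all promoters. Counted by window, the share was 41.5% of the 41 windows and 3.31% of all 35116 promoters. All 4 MCM2-7 genes with a window held a match, as did 4 of 7 polymerase and primase genes, 3 of 5 helicase activation genes, 2 of 4 licensing genes, 2 of 5 clamp and loader genes, 1 of 2 Okazaki fragment genes, 1 of 4 nucleotide supply genes and none of the 1 RPA gene with a window. In 15 of the 17 genes a match began within 100 bases before the start or after it.

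The stretches below, 60 bases each from upstream of the annotated start, are shown because they carry this element in genes whose levels are described further on; capitals mark the E2F-type matches. They are written 5′ to 3′ on the strand of the gene, at chr2:135876498-135876557 (minus strand) for MCM6, chr6:52284883-52284942 (minus strand) for MCM3, chr19:48170425-48170484 (minus strand) for LIG1, chr13:33818068-33818127 (plus strand) for RFC3, chr20:5126648-5126707 (minus strand) for PCNA and chr18:657588-657647 (plus strand) for TYMS. These are GRCh38.p14 coordinates and do not come from the expression tables, for which the submitters' processing notes name hg18.
MCM6: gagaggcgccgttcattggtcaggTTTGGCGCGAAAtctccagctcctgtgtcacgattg
MCM3: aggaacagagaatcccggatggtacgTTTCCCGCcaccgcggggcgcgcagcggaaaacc
LIG1: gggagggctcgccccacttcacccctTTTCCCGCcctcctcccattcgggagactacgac
RFC3: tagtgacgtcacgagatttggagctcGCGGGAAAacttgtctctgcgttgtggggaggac
PCNA: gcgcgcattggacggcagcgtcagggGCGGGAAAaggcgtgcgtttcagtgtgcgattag
TYMS: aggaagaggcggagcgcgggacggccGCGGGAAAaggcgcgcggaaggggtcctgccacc
The MCM6 stretch holds a pair of matches on opposite strands that overlap, and a second such pair lies further upstream in the same window. In MCM2 a similar overlapping pair lay just after the start. MCM3, LIG1, RFC3, PCNA and TYMS have a single match within the stretch shown.

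Other promoter elements were less unequal between these genes and the rest. They are shorter than the E2F-type element and more common over all genes, which leaves less room for such a difference. CCAAT, the core of the NF-Y box, was found on either strand in 59.4% of the 32 genes, 44.2% of tested genes and 39.7% of genes over all promoters. GGGCGG, the GC box, was found in 71.9%, 78.4% and 48.3%, and it can overlap an E2F-type match. Among 24 mitotic genes with a window, a list used here for comparison, 2 (8.33%) held an E2F-type match and 19 (79.2%) a CCAAT. These are counts of letters in fixed windows, and no set test was made.

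**Figure D1:**
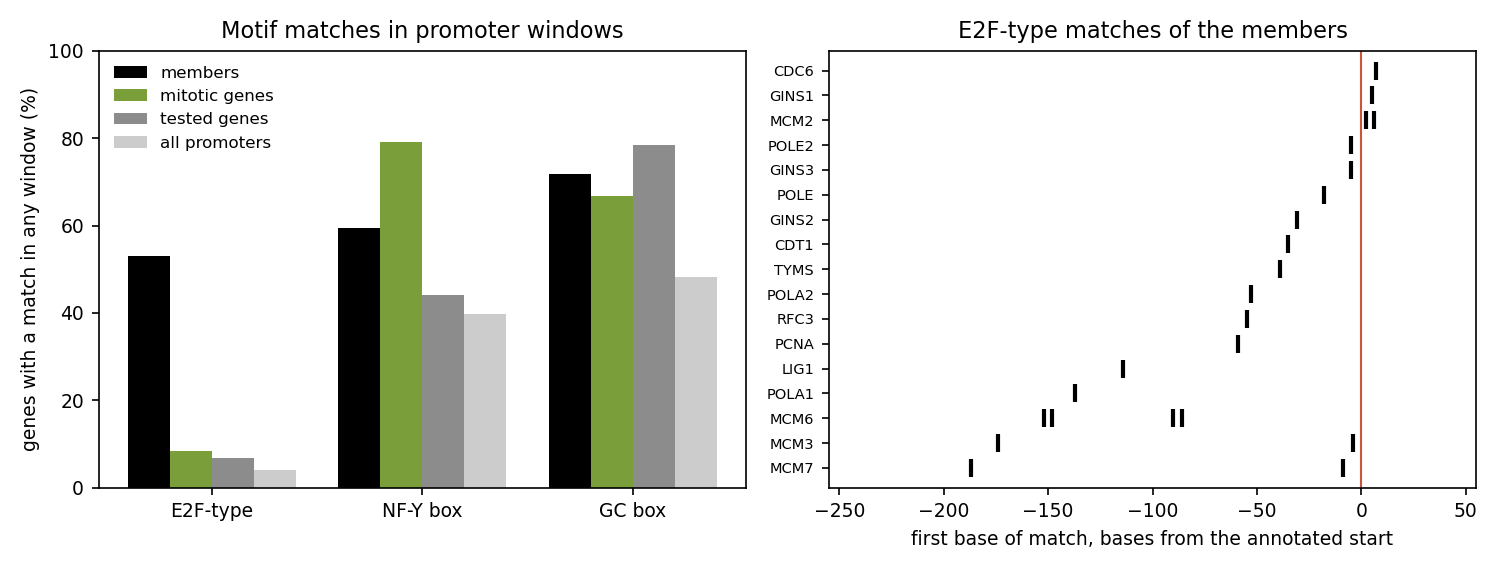
Left, the percentage of genes with at least 1 match in any promoter window for 3 elements, in 32 replication and nucleotide supply genes (members), 24 mitotic genes, 9445 tested genes and all promoters; right, the position of each E2F-type match in the 17 genes that hold one, with the annotated start as a red line at 0. The E2F-type bar of the members stands at 53.1% against 6.89% for tested genes, and most matches lie close to the start.

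Replication genes were well expressed in every library. In bulk RNA, the share of cells that express a gene and its RNA per cell cannot be told apart. Levels are given as FPKM, fragments per kilobase of transcript scaled to the mapped fragments of a library, which corrects for length. Exon bases shared with other genes and pseudogenes, described below, may still affect comparisons between genes. The 37 genes had a median of 41.75 FPKM over the 6 libraries, against 16.94 FPKM for all 11731 genes and loci tested (mean of at least 1 FPKM), and 30 of them lay above the latter value. TYMS, which makes thymidylate, was the most abundant at 346.7 FPKM, above 98.0% of tested genes, and POLE2, the second subunit of polymerase epsilon, the least abundant at 4.49 FPKM. Each gene kept a narrow range: its highest library exceeded its lowest by 1.05 times (TYMS) to 1.37 times (RPA3), with a median of 1.18.

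Within several roles the genes differed widely in transcript level, among them the MCM2-7 subunits, which assemble together. Among the MCM2-7 genes the order was MCM7, MCM4, MCM3, MCM5, MCM2 and MCM6 in 5 of 6 libraries, from 213 FPKM for MCM7 to 29.2 FPKM for MCM6, and only the ranges of MCM5 and MCM2 overlapped. MCM7 exceeded MCM6 by 6.55 to 7.88 times within a library. The licensing factors held the order ORC6, CDC6, CDT1 and ORC1 in all 6 libraries without overlap of neighbours, with means of 91.7, 46.7, 25.3 and 16.1 FPKM. Helicase activation genes lay closer together, from 26.3 FPKM for GINS4 to 12.8 FPKM for GINS1, and in this group 4 of the 5 neighbouring pairs overlapped.

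PCNA, the sliding clamp, averaged 167.9 FPKM and its loader subunits RFC2, RFC4, RFC5 and RFC3 averaged 81.6, 72.6, 33.5 and 25.5 FPKM, in that order in all 6 libraries, with only RFC2 and RFC4 overlapping in range. POLD1, the catalytic subunit of polymerase delta, led the polymerase group at 43.7 FPKM, followed by POLA2 (25.5), POLE (19.0), PRIM1 (14.8), PRIM2 (10.4), POLA1 (9.23) and POLE2, all in FPKM. The ranges of POLA2 and POLE overlapped, as did those of PRIM2 and POLA1. FEN1, the flap endonuclease, averaged 71.5 FPKM and LIG1, the ligase, 32.95 FPKM. RPA1, RPA2 and RPA3 averaged 75.96, 54.6 and 41.75 FPKM and kept this order in all 6 libraries. Among the nucleotide supply genes, TK1 (194.6 FPKM) and RRM2 (189.3 FPKM) overlapped in range below TYMS, and RRM1, the large subunit of ribonucleotide reductase, was lower at 81.96 FPKM than its partner RRM2.

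**Figure D2:**
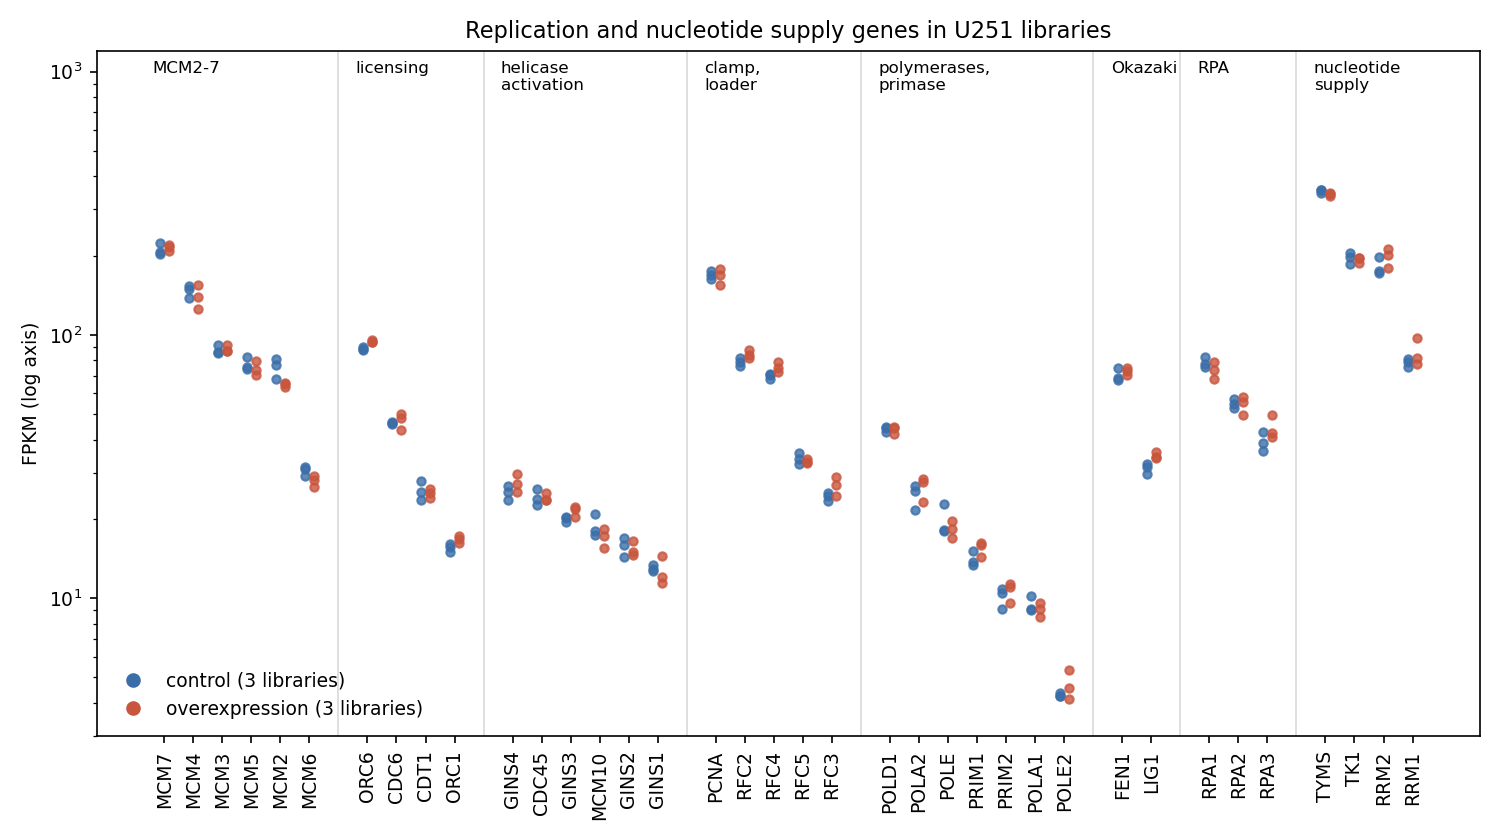
FPKM of each of the 37 genes on a log axis, grouped by role, with 1 point per library (blue, 3 control libraries; red, 3 overexpression libraries). Levels run from POLE2 at 4.49 to TYMS at 346.7 FPKM on average, and the points of the groups lie close together for each gene compared with the distance between genes.

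The comparison of overexpressing with control cells asked whether transcripts of this machinery differ when XLOC013218 is overexpressed. None of the 37 genes passed the test, and their estimated changes were small: log2 fold changes lay between -0.21 for MCM2 and 0.17 for RPA3, with 20 positive and 17 negative. Their median was 0.008, beside -0.001 for all tested genes. By limma on log2(FPKM + 1), with Benjamini-Hochberg adjustment over all 11731 tested genes, 0 of 37 had an adjusted p under 0.05, where 0.52% of all tested genes did (61 genes, 0.315% higher and 0.205% lower). The 61 genes became 1, 1 and 2 without control replicates 1, 2 and 3, and 14, 60 and 23 without overexpression replicates 1, 2 and 3. At an unadjusted p under 0.05 there were 2, MCM2 and LIG1, and the share of all tested genes was 12.7%. That count was 4 without control replicate 1, 1 without control replicate 2, 6 without overexpression replicate 1 and 1 without overexpression replicate 3, while the number past the adjusted threshold stayed at 0 with each of the 6 libraries left out.

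The precision of these estimates was limited by the spread between the 3 libraries of each group. The 95% intervals from limma, not adjusted for the number of genes, had a median half-width of 0.15 on the log2 scale and ran from -0.36 at the lowest bound (MCM2) to 0.36 at the highest (RPA3). All 37 intervals lay inside a 1.5-fold change in either direction, and 23 of them inside a 1.2-fold change. The median SD within groups was 0.086 for these genes and 0.091 for the 9471 tested genes in the same range of FPKM.

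**Figure D3:**
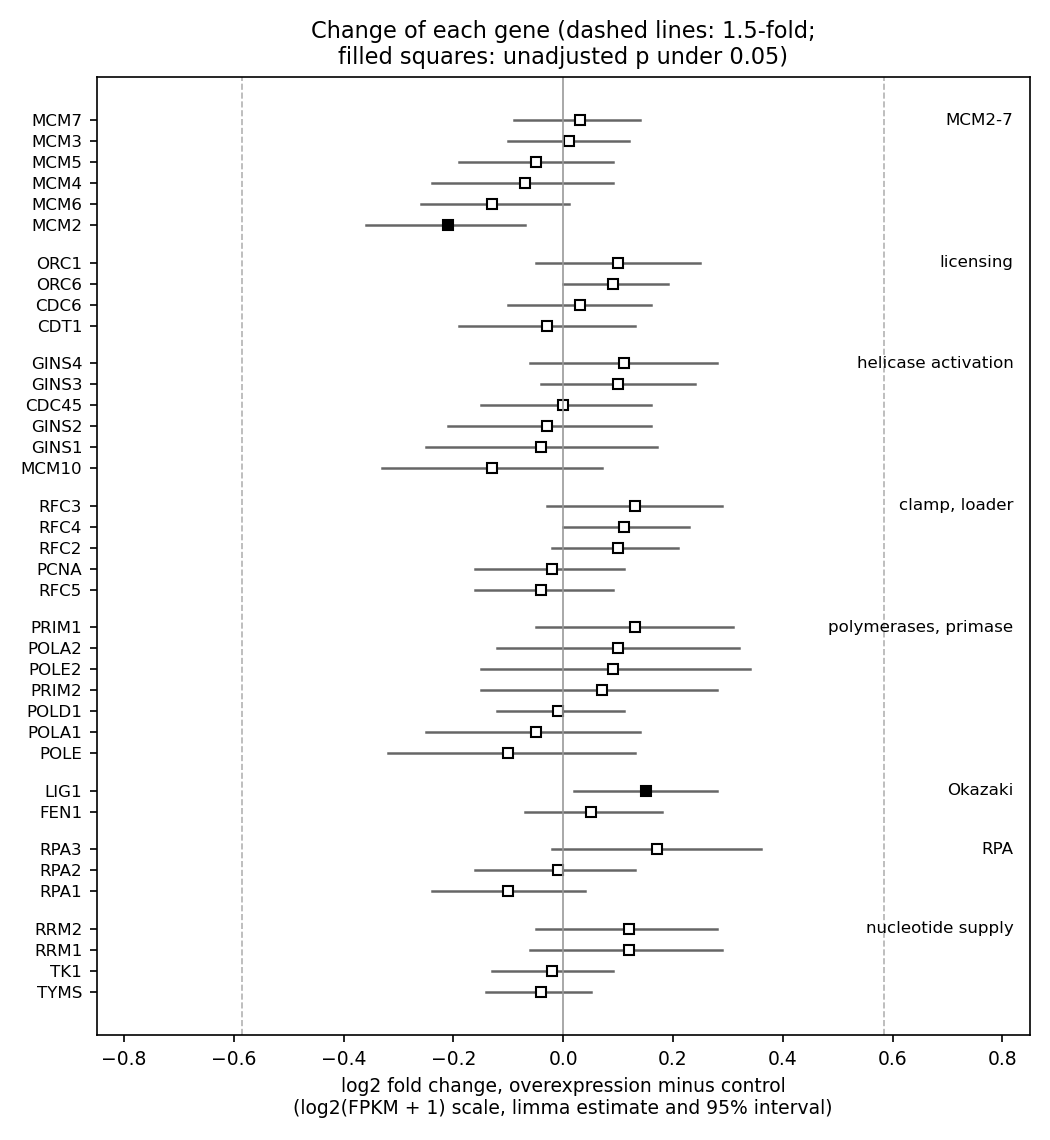
Log2 fold change of each gene on the log2(FPKM + 1) scale, overexpression minus control (squares, limma estimate; lines, 95% interval; 3 libraries per group), grouped by role. All intervals lie between the dashed 1.5-fold lines, and filled squares mark MCM2 and LIG1, the only genes with an unadjusted p under 0.05.

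The 3 overexpression values lay wholly outside the range of the 3 control values for 8 of the 37 genes, 2 lower (MCM2 and MCM6) and 6 higher (LIG1, ORC6, ORC1, RFC4, RFC2 and GINS3), or 21.6%. This separation held for 18.9% of all tested genes, 10.1% lower and 8.81% higher, so the share among replication genes was near the background. With 1 library left out, which leaves 2 libraries in a group and makes separation easier, the number was between 8 and 14, with 14 without control replicate 1, 14 without overexpression replicate 1 and 13 without overexpression replicate 2.

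Within the helicase ring, MCM2 had the lowest p of the 37 genes. Its levels were 81.0, 76.6 and 68.2 FPKM in the control libraries and 64.9, 63.3 and 65.8 FPKM in the overexpression libraries, in the order of replicates 1 to 3, an order kept below. All overexpression values were below all control values, and control replicate 3 lay nearest to them. The log2 fold change was -0.21 (SE 0.07, limma adjusted p = 0.222), and with any library or setting changed it stayed between -0.28 and -0.16 with an adjusted p in limma between 0.0712 and 0.512. A stretch of 0.918% of the MCM2 exon bases is shared with TPRA1 on the opposite strand.

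MCM6 measured 31.5, 29.2 and 30.9 FPKM in the control libraries and 26.5, 29.1 and 28.1 FPKM in the overexpression libraries. The groups were separated by a margin of under 1 FPKM, between control replicate 2 and overexpression replicate 2, and the log2 fold change was -0.13 (SE 0.06, limma adjusted p = 0.437). The other subunits overlapped between groups. MCM7 was at 211.0 ± 11.5 FPKM in the control libraries and 214.9 ± 5.84 FPKM in the overexpression libraries, MCM4 at 146.6 ± 8.06 and 139.6 ± 14.1 FPKM, MCM3 at 87.8 ± 3.31 and 88.3 ± 2.48 FPKM, and MCM5 at 77.3 ± 4.35 and 74.7 ± 4.62 FPKM (SD, n = 3 per group here and below). The 6 subunits had a median log2 fold change of -0.061, with 4 negative and 2 positive. In 5 of the 6 the highest of all libraries was control replicate 1.

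Among the licensing factors, ORC6, the smallest subunit of the origin recognition complex, was at 89.9, 87.9 and 88.1 FPKM in the control libraries and 94.3, 95.7 and 94.2 FPKM in the overexpression libraries. The values within each group lay close together and the groups did not overlap. The estimate on the log2 scale was 0.09 (SE 0.04, limma adjusted p = 0.394). ORC1, an ATP-binding subunit of the same complex, was at 15.66, 14.97 and 16.01 FPKM in the control libraries and 16.3, 17.2 and 16.8 FPKM in the overexpression libraries, also without overlap. CDC6 was at 46.2 ± 0.343 and 47.2 ± 3.18 FPKM and CDT1 at 25.6 ± 2.12 and 24.96 ± 0.976 FPKM, both with overlap.

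Of the helicase activation genes, GINS3 measured 20.1, 20.3 and 19.4 FPKM in the control libraries and 20.4, 21.8 and 22.1 FPKM in the overexpression libraries. Overexpression replicate 1 lay just above the control values, and the log2 fold change was 0.10 (SE 0.06, limma adjusted p = 0.559). Its partners in the GINS complex did not separate the groups: GINS4 was at 25.3 ± 1.59 and 27.4 ± 2.21 FPKM, GINS2 at 15.7 ± 1.32 and 15.4 ± 1.01 FPKM, and GINS1 at 12.95 ± 0.369 and 12.6 ± 1.59 FPKM. CDC45 was at 24.1 ± 1.75 and 24.1 ± 0.885 FPKM. MCM10, which helps to activate the assembled helicase, was at 18.7 ± 1.89 and 17.0 ± 1.35 FPKM.

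The clamp loader subunits RFC2, RFC3 and RFC4 had positive estimates, and RFC5 a negative one. RFC4 was at 70.8, 67.9 and 70.3 FPKM in the control libraries and 72.0, 79.2 and 75.1 FPKM in the overexpression libraries, without overlap (log2 fold change 0.11, SE 0.05, limma adjusted p = 0.41). RFC2 was at 76.3, 78.95 and 81.3 FPKM in the control libraries and 81.7, 87.7 and 83.7 FPKM in the overexpression libraries. Its groups were separated by the gap between control replicate 3 and overexpression replicate 1, and the log2 fold change was 0.10 (SE 0.05, limma adjusted p = 0.471). RFC3 was at 24.4, 23.4 and 25.0 FPKM in the control libraries and 24.3, 26.8 and 28.8 FPKM in the overexpression libraries, where replicate 1 fell among the control values (log2 fold change 0.13, SE 0.07, limma adjusted p = 0.514). Leaving out overexpression replicate 3 gave 0.07 for RFC3, and leaving out overexpression replicate 1 gave 0.19. RFC5 was at 33.9 ± 1.61 and 33.0 ± 0.731 FPKM. PCNA, which these subunits load, was at 169.1 ± 5.98 and 166.7 ± 11.8 FPKM.

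None of the 7 polymerase and primase genes separated the groups. PRIM1, the catalytic subunit of primase, was at 15.1, 13.7 and 13.3 FPKM in the control libraries and 14.3, 15.96 and 16.2 FPKM in the overexpression libraries, with overexpression replicate 1 below control replicate 1 (log2 fold change 0.13, SE 0.08, limma adjusted p = 0.549). PRIM2, its partner, was at 10.1 ± 0.919 and 10.6 ± 0.885 FPKM. POLA1 and POLA2, subunits of polymerase alpha, gave 9.41 ± 0.665 and 9.05 ± 0.561 FPKM for the former, 24.6 ± 2.58 and 26.4 ± 2.80 FPKM for the latter. POLD1 was at 43.9 ± 1.15 and 43.6 ± 1.37 FPKM. POLE, the catalytic subunit of polymerase epsilon, was at 19.7 ± 2.73 and 18.3 ± 1.38 FPKM, with a single high value of 22.9 FPKM in control replicate 3. POLE2 was at 4.30 ± 0.0723 and 4.68 ± 0.6001 FPKM.

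LIG1, which seals nicks between Okazaki fragments, had the second lowest p. It measured 32.4, 29.7 and 31.4 FPKM in the control libraries and 34.5, 33.9 and 35.8 FPKM in the overexpression libraries. All overexpression values were above all control values, and the log2 fold change was 0.15 (SE 0.06, limma adjusted p = 0.305). Over all alternatives it stayed between 0.12 and 0.18, with an adjusted p in limma between 0.135 and 0.663. FEN1, which acts before LIG1 on the same fragments, was at 70.3 ± 4.03 and 72.8 ± 2.23 FPKM with overlap.

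The RPA subunits had estimates of both signs. RPA3, the smallest subunit, was at 42.8, 38.8 and 36.2 FPKM in the control libraries and 40.9, 49.5 and 42.5 FPKM in the overexpression libraries. Overexpression replicate 2 stood above the other 5 libraries, which overlapped, and the log2 fold change was 0.17 (SE 0.09, limma adjusted p = 0.462). Without overexpression replicate 2 the estimate was 0.09, and without control replicate 3 it was 0.11. RPA1, the large subunit, was at 82.2, 77.7 and 75.8 FPKM in the control libraries and 73.2, 78.96 and 67.9 FPKM in the overexpression libraries, with overlap (log2 fold change -0.10, SE 0.06, limma adjusted p = 0.567). Leaving out overexpression replicate 3 gave -0.05 for RPA1, and leaving out overexpression replicate 2 gave -0.15. RPA2 was at 54.8 ± 2.02 and 54.5 ± 4.19 FPKM.

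Nucleotide supply genes overlapped between groups throughout. RRM2, the regulated small subunit of ribonucleotide reductase, was at 197.8, 175.1 and 171.7 FPKM in the control libraries and 178.9, 211.4 and 200.9 FPKM in the overexpression libraries (log2 fold change 0.12, SE 0.07, limma adjusted p = 0.562). For RRM2 the estimate was 0.07 without overexpression replicate 2 and 0.19 without overexpression replicate 1. Control replicate 1 lay between overexpression replicates 1 and 3. RRM1 was at 78.5 ± 2.77 and 85.5 ± 10.4 FPKM, and its overexpression spread came from replicate 3 at 97.2 FPKM against 81.5 and 77.6 FPKM in replicates 1 and 2. TYMS was at 352.0 ± 6.65 and 341.4 ± 3.21 FPKM and TK1, which salvages thymidine, at 196.1 ± 9.79 and 193.1 ± 5.27 FPKM.

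Libraries of the same group differed in the level of these genes as a set. The median deviation of the 37 genes from their mean over 6 libraries, on the log2(FPKM + 1) scale, was 0.04, -0.04 and -0.032 for the control libraries in replicate order and -0.033, 0.062 and 0.003 for the overexpression libraries. Control replicate 1 and overexpression replicate 2 each held the highest value for 12 of the 37 genes (32.4%), against 16.8% and 17.1% of all tested genes. Control replicates 2 and 3 each held the lowest value for 10 genes (27.0%), against 13.7% and 18.3% of all tested genes. Thus the libraries in which replication genes tended to be high belonged to different groups.

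**Figure D4:**
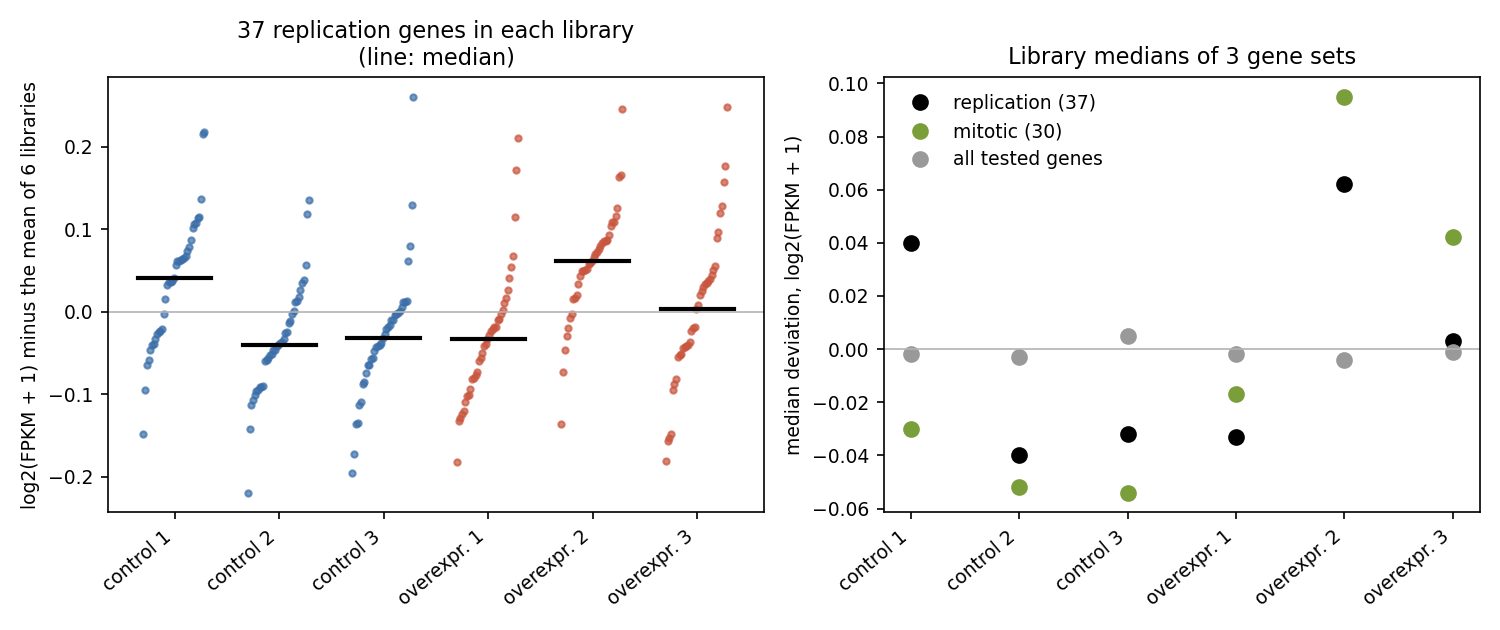
Left, the deviation of each of the 37 genes from its mean over 6 libraries (log2(FPKM + 1), 1 point per gene, black line at the median) in each library; right, the library medians of the 37 genes, of 30 mitotic genes and of all tested genes. The medians of the replication genes are highest in overexpression replicate 2 (0.062) and control replicate 1 (0.04), and those of the mitotic genes are -0.03, -0.052 and -0.054 in control and -0.017, 0.095 and 0.042 in the overexpression libraries.

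Mitotic genes, which act later in the cell cycle, had more positive estimates than the replication genes. Of 30 mitotic genes, 28 had a positive log2 fold change, with a median of 0.09. A lean to positive estimates was not particular to them: the further lists described below held 68 positive and 30 negative estimates. In limma 0 passed the test over all genes and 3 had an unadjusted p under 0.05. The groups were separated for 8 (26.7%), all of them higher in the overexpression libraries. Over all tested genes, 49.7% had a positive estimate, 12.7% an unadjusted p under 0.05 and 18.9% separated groups, 8.81% higher and 10.1% lower. FOXM1, a transcription factor of mitotic genes, was at 90.1 ± 2.54 and 101.6 ± 3.802 FPKM, KIF20A, a kinesin of cytokinesis, at 49.3 ± 0.353 and 54.3 ± 1.62 FPKM, and CDC20, an activator of the anaphase-promoting complex, at 153.2 ± 8.04 and 167.3 ± 5.29 FPKM. The difference between the mitotic and the replication genes was not tested, and in both sets the highest library median was that of overexpression replicate 2.

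Other genes of DNA replication and its supply were taken from 6 further lists, 98 tested genes in all. None passed in limma, 7 had an unadjusted p under 0.05, 6 of them with a positive estimate, and 14 (14.3%) had separated groups, 12 higher and 2 lower. Estimates were positive for 68 of the 98 (69.4%) and negative for 30, where 49.7% of all tested genes were positive. This difference was not tested. The shares over all tested genes, 12.7% at an unadjusted p under 0.05 and 18.9% separated in either direction, were both higher than in these lists together. The 10 remaining subunits of the same complexes had a median log2 fold change of 0.06. Among them POLD4, the smallest subunit of polymerase delta, was at 38.0, 37.9 and 36.7 FPKM in the control libraries and 34.2, 32.0 and 31.1 FPKM in the overexpression libraries, lower without overlap (log2 fold change -0.21, SE 0.06, limma adjusted p = 0.166). POLD3, another subunit of polymerase delta, was at 13.4 ± 1.201 and 15.2 ± 0.659 FPKM, and POLE3, a histone-fold subunit of polymerase epsilon, at 56.6 ± 2.08 and 60.8 ± 1.03 FPKM.

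The 12 tested genes of licensing control and origin firing had a median of 0.056. DBF4 and DBF4B, alternative activators of the CDC7 kinase that fires origins, gave 27.9 ± 2.43 and 33.4 ± 4.90 FPKM for DBF4, 24.4 ± 1.41 and 27.98 ± 0.319 FPKM for DBF4B, and their limma adjusted p values were 0.367 and 0.248. For DBF4, overexpression replicate 2 stood at 39.0 FPKM against 30.2 and 30.9 FPKM in replicates 1 and 3, and control replicate 3 was at 30.55 FPKM. Its log2 fold change was 0.24, and 0.13 without overexpression replicate 2. GMNN, the inhibitor of CDT1, was at 43.8 ± 0.354 and 47.4 ± 3.47 FPKM. The 16 fork protection and fork processing genes had a median of 0.01. TIPIN, which with TIMELESS stabilises forks, was at 10.8, 12.3 and 15.1 FPKM in the control libraries and 15.7, 15.8 and 16.5 FPKM in the overexpression libraries. Control replicate 3 reached nearly to the overexpression values (log2 fold change 0.32, SE 0.11, limma adjusted p = 0.268), and without control replicate 1 the log2 fold change was 0.21. CHTF18, of an alternative clamp loader, was at 17.6 ± 3.01 and 20.5 ± 0.542 FPKM, and RNASEH2C, of the enzyme that removes ribonucleotides from DNA, at 37.1 ± 2.61 and 34.4 ± 2.196 FPKM.

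The 7 tested genes of chromatin assembly and maintenance methylation at forks had a median of 0.03, with ASF1A, a histone chaperone, at 22.97 ± 1.84 and 24.6 ± 1.45 FPKM, DNMT1, the maintenance methyltransferase, at 128.3 ± 8.95 and 132.3 ± 4.73 FPKM, and CHAF1B, of chromatin assembly factor 1, at 6.74 ± 0.471 and 6.35 ± 0.911 FPKM. The 27 further genes of nucleotide synthesis and salvage also had a median of 0.03. SAMHD1, which degrades deoxynucleotides and is also known as an interferon-induced antiviral factor, came closest to the threshold of all these genes. It was at 81.2, 86.0 and 83.6 FPKM in the control libraries and 102.8, 104.0 and 121.4 FPKM in the overexpression libraries. The groups were well separated, with overexpression replicate 3 highest, and the log2 fold change was 0.38 (SE 0.07, limma adjusted p = 0.0515). Its limma adjusted p was 0.0382 with a filter at a mean of 5 FPKM and 0.0238 when libraries were weighted by quality, both past the threshold, and over all alternatives the adjusted p was between 0.0238 and 0.181. ATIC and PPAT, enzymes of purine synthesis, gave 45.8 ± 0.202 and 48.97 ± 0.965 FPKM for ATIC, 22.4 ± 2.15 and 25.3 ± 1.79 FPKM for PPAT.

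The 26 genes of the E2F, RB and S-phase kinase list had a median of 0.05, with 5 genes separated in the higher direction (19.2%) and 0 in the lower. Over all tested genes, 8.81% were separated in the higher direction and 10.1% in the lower. In either direction the shares were 19.2% for this list and 18.9% for all tested genes, so the total was near the background. The difference in the split by direction was not tested. E2F4, a mainly repressive E2F, was at 53.3, 50.9 and 52.1 FPKM in the control libraries and 59.5, 58.7 and 57.2 FPKM in the overexpression libraries, without overlap (log2 fold change 0.16, SE 0.05, limma adjusted p = 0.192). CDKN1A, the kinase inhibitor p21, was at 31.6 ± 1.03 and 35.5 ± 2.15 FPKM, and E2F7, an atypical repressive E2F, at 13.4 ± 1.198 and 15.1 ± 0.308 FPKM. The 17 replication genes with an E2F-type promoter match had a median log2 fold change of -0.022 (8 positive), and the 15 with a window and no match had one of 0.067 (10 positive). This difference was not tested.

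Of 9 markers of glioma cells and astrocytes, 6 averaged at least 1 FPKM, with VIM, CD44, SOX2 and NES the most abundant, while S100B, OLIG2 and AQP4 were below 1 FPKM in every library, and the summed level of the 9 was 5025 to 5409 FPKM over control libraries against 4748 to 4973 FPKM over overexpression libraries. Within this list GFAP averaged 41.6 and 21.6 FPKM in control and overexpression libraries, and SLC1A3 3.26 and 4.17 FPKM. Among the markers of immune cells, CD68 alone averaged 1 FPKM or more. Their sum was 6.76 to 7.66 FPKM over control libraries against 10.1 to 11.8 FPKM over overexpression libraries. The sum for fibroblasts and pericytes was 8.20 to 9.53 against 10.2 to 15.7 FPKM, while PTPRC and DCN stayed below 1 FPKM. In the latter list COL1A1 averaged 7.11 and 10.25 FPKM in control and overexpression libraries, and PDGFRB 1.5 and 1.49 FPKM. Summed neuron markers overlapped between groups, at 9.56 to 10.4 against 8.65 to 11.3 FPKM. Oligodendrocyte (0.2 to 0.47 against 0.16 to 0.95 FPKM) and endothelial markers (0.54 to 0.76 against 0.37 to 0.57 FPKM) also overlapped. The part of the glioma, immune and fibroblast marker shifts in the values above was not tested. In GENCODE 29, 11 of the 37 genes share exon bases with another listed gene, 10 of them with a gene on the opposite strand, and whether counting used strand was not stated in the labels. The overlap was largest for TYMS, where ENOSF1 covers 39.1% of exon bases at a mean of 1.34 FPKM. FEN1, PCNA, RFC3, RFC5, RPA2, RRM2 and TYMS have processed pseudogenes named after them, 14 in all. None of these pseudogenes was listed in any library, so how reads shared with them were assigned is uncertain.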

How the data were processed

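Gene levels in 6 libraries of U251 cells (3 control, 3 overexpressing XLOC013218) were read from 1 table per library. The authors deposited gene-level FPKM rounded to 2 decimals, for 20330 Ensembl genes and then assembled loci; 5 of the 6 tables end in an incomplete line, which was not read, and 68 assembled loci were listed in all 6. Cufflinks 2.2.1, RSEM 1.3.1, TopHat, Bowtie, edgeR and the build hg18 are named, without roles, per the submitters' processing notes. Per the labels' protocols, libraries were stranded and poly(A)-selected, whereas the series' design text describes cytoplasmic RNA without that selection. Depth in reads is unknown: steps between low FPKM values gave relative depths between 0.77 and 1.08 of control replicate 2, and those of single libraries shifted with the range of values used. FPKM summed over Ensembl genes to between 598683 and 621922 per library.

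Symbols came from a table of gene names (19447 identifiers matched). Of the rows common to the 6 tables, the 11731 averaging 1 FPKM or more were tested on log2(FPKM + 1), which understates changes of low genes, with limma 3.58.1 (trend, group as the only term, two-sided) in R 4.3.3; adjusted p under 0.05 was the threshold. An exact permutation test of 3 against 3 cannot go below 0.1. The method was tested on simulated data with planted changes larger than any estimated for the members, so that test does not cover changes of their size. Summaries used Python 3.11.15 and pandas 2.3.3, and plots matplotlib 3.10.9. The members and lists were chosen with earlier results of these data known. Log2 fold change, SE and adjusted p are given for the 12 members with the lowest p, and of other lists the 3 genes with the lowest p are named; ORC1 and other genes given by all values were chosen after their values were seen. UHRF1 and PECAM1 matched no row. Alternatives were other pseudocounts, filters, scalings and weights, a replicate block and leaving out each library.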

Additional observations from a re-analysis of the deposited data

How the results depend on the processing

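The number of replication genes past the threshold was 0 in all 14 alternative fits, with MCM2 nearest under array quality weights (adjusted p = 0.0712 in limma; the highest over the alternatives was 0.512). None of the 12 genes given with statistics changed sign, and the median log2 fold change of all 37 lay between -0.015 and 0.039. The number of replication genes at an unadjusted p under 0.05 was 4 with no filter on low values, 4 under quantile normalization and 6 with array quality weights, against 2, and between 1 and 6 with 1 library left out. The number with separated groups was 6 after rescaling to TPM, against 8, and between 8 and 14 with 1 library left out. Over all genes, 61 calls became 1 with no filter on low values, 1 without trend in limma, 197 with array quality weights, and between 1 and 60 with 1 library left out. SAMHD1 passed with a filter at a mean of 5 FPKM and with array quality weights, its limma adjusted p being 0.0382 and 0.0238 there, within a range of 0.0238 to 0.181 over the alternatives. Of the 21 other genes named from further lists, CHAF1B alone changed sign: its log2 fold change was between -0.14 and 0.03 with 1 library left out, the latter without overexpression replicate 1.

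With the replicate number from the titles as a replicate block, 19 genes passed and no replication gene did. Same-numbered libraries did not deviate together (correlations of -0.04, -0.06 and 0.04 over tested genes, and not every library correlated best with its own number), so the numbers were not taken to pair the samples. The number of libraries and the unknown read depth limit the precision.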
